A study of Mus musculus with 9 samples.

Results

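The family described here is the set of receptors that bind the Fc part of IgG on mouse myeloid cells, Fcgr1, Fcgr2b, Fcgr3 and Fcgr4, together with Fcer1g, which encodes the chain that the activating ones signal through. A probe was taken as a member when the transcript accession given for it in the scanner files belonged to one of these 5 genes in RefSeq. This gave 8 of the 41174 probes on the array: 3 for Fcgr2b, 2 for Fcgr3 and 1 each for Fcgr1, Fcgr4 and Fcer1g. The 5 genes are among 16535 that could be named on the array. All 8 probes were well above background on all 9 arrays, and all 8 entered the test, in which 36585 probes were compared.

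Cells of the FDCPmix line, a mouse multipotent progenitor line that depends on interleukin-3, were kept in self-renewal conditions and transduced with lentivirus. The 3 groups received empty virus (EV), an shRNA against Gata2 (Gata2 KD) or an shRNA against Pu.1, the factor encoded by Spi1 (Pu.1 KD), with 3 arrays in each. The shRNAs were carried by the Lentilox 3.7 vector, and in all groups viable GFP+ cells were sorted 5 days after transduction. Every sample is therefore the same line, and the control carries no shRNA sequence of its own. The samples were transduced in triplicate, and the sources used here do not give whether the triplicates came from separate starting cultures or how many shRNA sequences were used per target. The p-values below measure the spread between these triplicates, which may in part be technical.

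Fc gamma receptors tell a myeloid cell that a target is coated with IgG. Fcgr1 binds monomeric IgG with high affinity, while Fcgr3 and Fcgr4 bind immune complexes. All of them signal through the Fcer1g chain, whose ITAM motif recruits the kinase Syk. Fcgr2b works the other way: it carries an ITIM in its own tail, recruits the phosphatase Inpp5d (SHIP1) and damps activation. Neutrophils, monocytes, macrophages and mast cells express different mixtures of these receptors, and the balance of activating receptors against Fcgr2b is often taken as a measure of how readily a cell responds to immune complexes.

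Levels are log2 processed intensity after subtraction of the 75th percentile of the same array, so that 0 is the 75th percentile and a step of 1 is a 2-fold change of signal. Changes are differences of mean levels, tested with limma over all 36585 probes, and a gene was called at a Benjamini-Hochberg adjusted p under 0.05. Where a gene had several probes, the brightest stands for it: A_51_P130095 for Fcgr2b and A_51_P328613 for Fcgr3. Levels of different probes are not comparable with each other, because each probe has its own response.

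Between 80.4% and 89.6% of spots were well above background on the 9 arrays, no spot was saturated, and the 75th percentile of processed intensity lay between 452.5 and 598.9. The arrays came from 3 slides, on each of which EV, Gata2 KD and Pu.1 KD were represented once. The third EV array correlated least with the others, with a mean correlation of 0.96 against at least 0.97 for the rest. Gata2 fell by 1.61 (SE 0.23, limma adjusted p = 0.00414) in Gata2 KD, where Spi1 rose by 1.39 (SE 0.16, adjusted p = 0.0012). Spi1 fell by 1.73 (SE 0.16, adjusted p = 0.00178) in Pu.1 KD (by 1.00 with the normexp background correction), where the change of Gata2 was -0.15 (adjusted p = 0.964). The 6 markers set for the progenitor line, among them Kit, Cd34 and Ptprc, were well above background on all 9 arrays. Their levels were not all constant. In Gata2 KD Cd34 rose by 2.17 (limma adjusted p = 0.000147) and Kit by 0.75 (adjusted p = 0.0241), Gata2 fell as given, and 3 did not pass the test. In Pu.1 KD Kit rose by 1.41 (adjusted p = 0.00332), Cd34 fell by 0.92 (adjusted p = 0.0263), and 4 did not pass the test.

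Fcgr1, Fcgr2b and Fcgr3 were called in both knockdowns of these transcription factors, so the sequences around the start sites of the family are shown before the values. They are the RefSeq windows of the build GRCm38.p6, from 250 bases before to 50 bases after the start, written 5′ to 3′ along each gene. Fcgr2b is on the minus strand at chr1:170976022-170976321, Fcgr4 on the plus strand at chr1:171018676-171018975, Fcgr3 (the first of its 2 listed starts) on the minus strand at chr1:171059354-171059653, Fcer1g on the minus strand at chr1:171234300-171234599, and Fcgr1 on the minus strand at chr3:96293920-96294219. Capitals mark matches on either strand to GGAAGTG or AGGAAG, which hold the GGAA core bound by PU.1 and other ETS factors; on the opposite strand they read as CACTTCC and CTTCCT.
Fcgr1: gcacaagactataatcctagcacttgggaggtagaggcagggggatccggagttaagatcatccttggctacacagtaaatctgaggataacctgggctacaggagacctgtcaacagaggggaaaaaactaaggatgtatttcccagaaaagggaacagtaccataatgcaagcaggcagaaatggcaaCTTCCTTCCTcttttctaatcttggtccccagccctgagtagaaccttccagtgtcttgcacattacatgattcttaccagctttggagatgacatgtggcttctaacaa
Fcgr3: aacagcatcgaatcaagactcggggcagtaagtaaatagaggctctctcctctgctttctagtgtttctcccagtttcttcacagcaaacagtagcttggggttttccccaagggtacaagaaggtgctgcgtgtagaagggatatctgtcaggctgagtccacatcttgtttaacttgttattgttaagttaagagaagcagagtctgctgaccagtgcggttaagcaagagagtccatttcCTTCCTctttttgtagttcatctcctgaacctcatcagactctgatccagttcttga
Fcgr4: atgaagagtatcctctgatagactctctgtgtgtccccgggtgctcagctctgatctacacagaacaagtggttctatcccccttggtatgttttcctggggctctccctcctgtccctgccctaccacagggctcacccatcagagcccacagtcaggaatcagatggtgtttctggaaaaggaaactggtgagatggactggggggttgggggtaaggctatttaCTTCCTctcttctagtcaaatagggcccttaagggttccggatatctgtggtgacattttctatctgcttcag
Fcgr2b: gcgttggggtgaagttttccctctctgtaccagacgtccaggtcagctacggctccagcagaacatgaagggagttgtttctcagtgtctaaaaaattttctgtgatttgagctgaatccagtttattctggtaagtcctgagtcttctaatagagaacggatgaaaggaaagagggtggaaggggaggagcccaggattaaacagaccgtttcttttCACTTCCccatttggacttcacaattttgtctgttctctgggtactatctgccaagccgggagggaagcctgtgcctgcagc
Fcer1g: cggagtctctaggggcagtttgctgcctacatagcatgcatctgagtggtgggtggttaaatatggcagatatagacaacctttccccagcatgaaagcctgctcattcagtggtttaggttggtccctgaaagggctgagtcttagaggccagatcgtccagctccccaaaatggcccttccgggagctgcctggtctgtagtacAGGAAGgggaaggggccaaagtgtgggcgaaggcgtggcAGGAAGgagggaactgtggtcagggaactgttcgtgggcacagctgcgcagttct

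The windows of all 5 genes held at least 1 of these 2 strings, as did 40.1% of 32851 RefSeq windows of this length. AGGAAG was found in 4 of the 5, against 35.4% of all windows. It began 60 and 56 bases before the start of Fcgr1, in overlapping copies on the opposite strand, 7 bases before the start of Fcgr3, 23 before that of Fcgr4, and 44 and 5 before that of Fcer1g. GGAAGTG was found only in the Fcgr2b window, 32 bases before the start on the opposite strand, against 11% of all windows. The strings AGATAAG and TGATAAG, which hold the core bound by GATA factors, were searched on both strands and matched none of the 5 windows, against 3.04% and 2.3% of all. Shorter GATA strings were not searched, among them WGATAR, in which W is A or T and R is A or G. The Fcgr4 window holds TGATAG and CTATCT, and the Fcgr2b window holds CTATCT, which reads AGATAG on the opposite strand. All of these match WGATAR. They were read from the printed windows, and the share of all windows with such a match was not counted. These are letter matches in short windows. The Fcer1g window held AGGAAG as those of Fcgr1, Fcgr3 and Fcgr4 did.

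After Gata2 knockdown the 4 receptors rose and the common chain did not pass the test. Fcgr4 rose 3.96-fold, Fcgr1 3.45-fold, Fcgr3 3.25-fold and Fcgr2b 1.85-fold. After Pu.1 knockdown Fcgr1 fell 8.16-fold, Fcgr3 6.56-fold and Fcgr2b 4.24-fold, while Fcgr4 and Fcer1g did not pass the test. Thus 4 of 5 genes were called higher in Gata2 KD, where 5.2% of all probes were called in either direction and 2.96% were called higher. In Pu.1 KD 3 of 5 genes were called lower, where 2.7% of all probes were called and 1.42% were called lower. The median change of the 5 genes was 1.70 in Gata2 KD and -2.08 in Pu.1 KD, beside -0.09 and -0.04 over all genes tested. In whole-population RNA, a change in the number of cells that express a receptor cannot be told apart from a change in its RNA per cell.

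**Figure D1:**
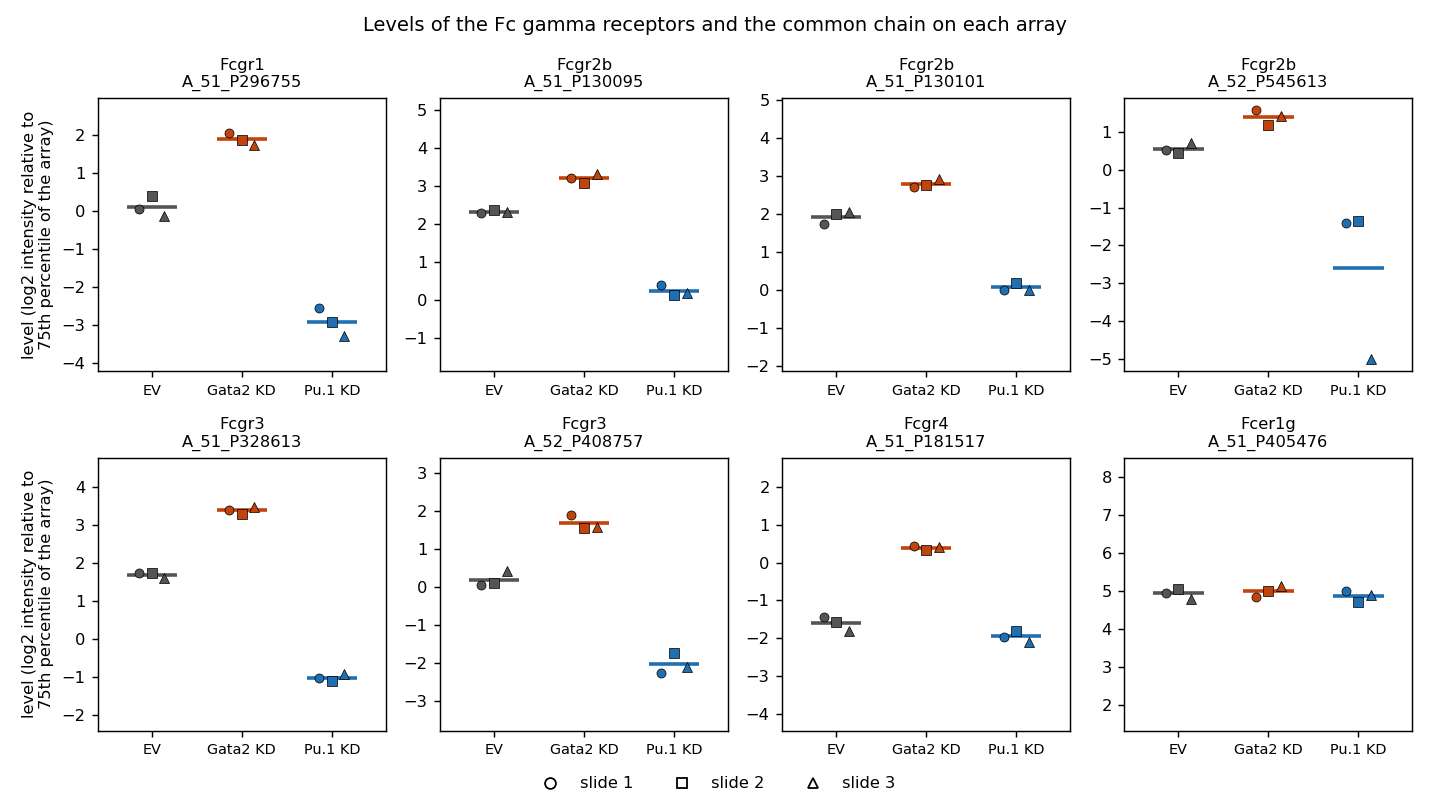
Level of each of the 8 probes on each array (log2 scale, with 0 at the 75th percentile), with 1 point per array, shaped by slide, and a line at the mean of 3 arrays in EV, Gata2 KD and Pu.1 KD. Each panel spans the same number of log2 units around its own centre; 7 of the 8 probes lie higher in every Gata2 KD array than in every EV array, and the Fcer1g points overlap in all 3 groups.

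Fcgr1 encodes the high-affinity receptor. Its level was 0.04, -0.14 and 0.40 on the 3 EV arrays, 1.74, 1.86 and 2.06 on the Gata2 KD arrays, and -2.94, -3.30 and -2.55 on the Pu.1 KD arrays. The 3 groups did not overlap, with Gata2 KD on top and Pu.1 KD at the bottom. The probe kept a processed intensity of 50.4 to 82.7 in Pu.1 KD, against 447.7 to 641.5 in EV. The rise in Gata2 KD was 1.79 (SE 0.23, 95% confidence interval 1.27 to 2.30, limma adjusted p = 0.00236), and within the 3 slides it was between 1.46 and 2.02. The fall in Pu.1 KD was -3.03 (SE 0.23, interval -3.55 to -2.51, adjusted p = 0.00127), with -3.33 to -2.59 within slides. With another background correction (normexp) the fall was -2.20, still called. By size it ranked 12 among the changes of the 36585 probes in that comparison.

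Fcgr3 encodes the activating low-affinity receptor found on most myeloid cells. On probe A_51_P328613 its level was 1.731, 1.603 and 1.728 in EV, 3.48, 3.30 and 3.38 in Gata2 KD and -1.12, -0.94 and -1.02 in Pu.1 KD. The arrays of each group lay within 0.18 of each other, and the groups were separated by gaps of 1.57 and 2.54. The level rose by 1.70 in Gata2 KD (SE 0.12, interval 1.42 to 1.98, limma adjusted p = 0.00012) and fell by 2.71 in Pu.1 KD (SE 0.12, adjusted p = 0.000121). The second probe, A_52_P408757, lay at 0.06, 0.43 and 0.10 in EV, 1.597, 1.574 and 1.904 in Gata2 KD and -1.73, -2.10 and -2.26 in Pu.1 KD. It followed the same order without overlap, rose by 1.495 (adjusted p = 0.00248) and fell by 2.23 (adjusted p = 0.0015).

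Fcgr4 encodes the other activating receptor for immune complexes, which in mice is carried by neutrophils and monocytes. Its level was -1.43, -1.80 and -1.56 in EV, 0.42, 0.33 and 0.42 in Gata2 KD and -1.80, -2.08 and -1.96 in Pu.1 KD. All Gata2 KD arrays lay above all others, whereas EV and Pu.1 KD met at their edges, with 2 of 3 Pu.1 KD arrays below every EV array. The rise in Gata2 KD was 1.99 (SE 0.15, interval 1.65 to 2.32, limma adjusted p = 0.000125). The difference of Pu.1 KD from EV was -0.35 (SE 0.15, interval -0.69 to -0.02, adjusted p = 0.372), which did not pass the test. The processed intensity was 141.5 to 218.6 in EV and 117.3 to 133.6 in Pu.1 KD, whereas the dimmest spots well above background lay between 6.04 and 14.8 on the 9 arrays.

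Fcgr2b encodes the inhibitory receptor. On probe A_51_P130095, which is printed in 10 spots on each array, its level was 2.29, 2.30 and 2.38 in EV, 3.32, 3.09 and 3.21 in Gata2 KD and 0.13, 0.19 and 0.39 in Pu.1 KD. The groups did not overlap. Its rise in Gata2 KD was 0.88 (SE 0.13, interval 0.58 to 1.19, limma adjusted p = 0.00561), the smallest of the 4 receptors, and its fall in Pu.1 KD was -2.08 (SE 0.13, interval -2.39 to -1.78, adjusted p = 0.000629). The second probe, A_51_P130101, lay at 1.744, 2.049 and 2.004 in EV, 2.92, 2.77 and 2.73 in Gata2 KD and 0.19, 0.01 and 0.01 in Pu.1 KD. It rose by 0.88 (adjusted p = 0.0084) and fell by 1.86 (adjusted p = 0.00127), close to the first probe in both, and its rise missed the threshold when arrays were scaled to the median (adjusted p = 0.0602) and with a replicate block (adjusted p = 0.0519).

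The third Fcgr2b probe, A_52_P545613, gave 0.52, 0.69 and 0.43 in EV, 1.42, 1.16 and 1.57 in Gata2 KD and -1.37, -4.99 and -1.41 in Pu.1 KD. The groups again did not overlap, but the second Pu.1 KD array stood far below its 2 partners, at a processed intensity of 15.7 against 179.8 and 183. Neither change of this probe passed the test (0.83 with adjusted p = 0.852 in Gata2 KD, and -3.14 with SE 0.85 and adjusted p = 0.118 in Pu.1 KD). Without that array the changes were 0.83 (adjusted p = 0.0284) and -1.94 (adjusted p = 0.00898), both called. When the 3 probes were averaged into 1 value, Fcgr2b rose by 0.86 in Gata2 KD with an adjusted p of 0.234 and no longer passed the test. The other 2 probes did not show a low value on that array. Mouse Fcgr2b and Fcgr3 are closely similar in the part that binds IgG, the probe sequences were not analysed here, and sharing of signal between their probes was not tested.

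Fcer1g encodes the common chain. Its level was 4.96, 4.81 and 5.06 in EV, 5.13, 5.02 and 4.86 in Gata2 KD and 4.72, 4.89 and 5.01 in Pu.1 KD. The 3 groups overlapped, and the processed intensity stayed between 12240 and 18310 with no saturated spot. The change was 0.06 in Gata2 KD (SE 0.15, interval -0.27 to 0.39, limma adjusted p = 0.973) and -0.07 in Pu.1 KD (SE 0.15, interval -0.40 to 0.27, adjusted p = 0.993). The outermost bounds of these intervals were -0.40 and 0.39.

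**Figure D2:**
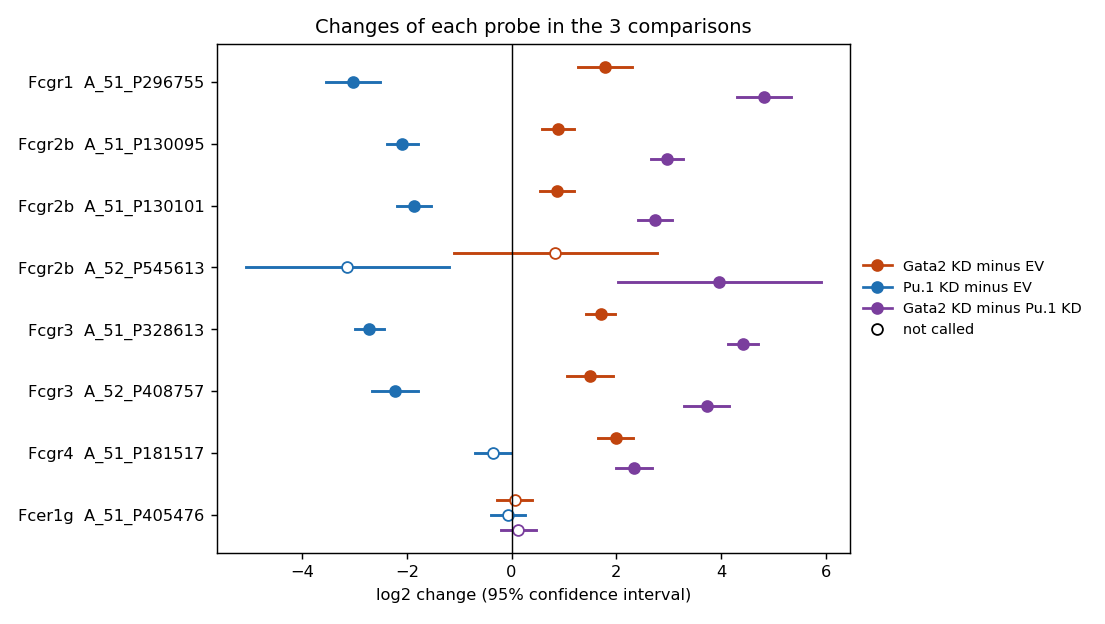
Log2 change of each probe in the 3 comparisons, as the estimate (point) with its 95% confidence interval (line); filled points are called at an adjusted p under 0.05 and open points are not. The receptor probes lie right of 0 in Gata2 KD and left of 0 in Pu.1 KD, with Fcgr4 close to 0 in Pu.1 KD (-0.35), Fcer1g close to 0 throughout, and wide intervals for the Fcgr2b probe A_52_P545613.

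The comparison of the knockdowns with each other, which does not use the EV arrays as a baseline, gave the largest differences. Fcgr1 was 28.2-fold higher in Gata2 KD than in Pu.1 KD (log2 difference 4.82, SE 0.23, limma adjusted p = 5.72e-06), although normexp gave a smaller difference of 3.87. Fcgr3 was 21.3-fold higher (4.41, SE 0.12, adjusted p = 6.39e-07), and within the 3 slides its difference stayed between 4.41 and 4.42. Fcgr2b was 7.83-fold higher (2.97, adjusted p = 4.85e-06) and Fcgr4 5.06-fold higher (2.34, adjusted p = 2.71e-05). Fcer1g differed by 0.13 (interval -0.20 to 0.46, adjusted p = 0.908). In this comparison 4 of 5 genes were called higher, where 9.63% of all probes were called in either direction and 4.86% were called higher. By probe, 7 of 8 were higher on every Gata2 KD array than on every Pu.1 KD array, where 11.8% of all probes were. Against EV, the same held for 7 of 8 probes in Gata2 KD (7.65% of all), and 6 of 8 lay lower on every Pu.1 KD array (9.32% of all).

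With slide added as a block the calls of the 5 genes were the same. The adjusted p of the called receptors then lay between 0.000367 and 0.00592 for Gata2 KD and between 0.000794 and 0.00208 for Pu.1 KD.

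To set the activating against the inhibitory receptor within each array, the level of the brightest Fcgr2b probe was subtracted from that of the brightest Fcgr3 probe on the same array, which removes any factor that acts on a whole array. The difference was -0.56, -0.70 and -0.65 in EV, 0.16, 0.21 and 0.17 in Gata2 KD and -1.25, -1.13 and -1.41 in Pu.1 KD. It was higher on every Gata2 KD array and lower on every Pu.1 KD array than on any EV array. The mean moved from -0.64 ± 0.07 (SD, n = 3) in EV to 0.18 ± 0.03 in Gata2 KD, so that Fcgr3 gained 1.76-fold on Fcgr2b on these probes. It moved to -1.26 ± 0.14 in Pu.1 KD, where Fcgr3 lost 1.55-fold on Fcgr2b. The exact two-sided permutation p was 0.1 for each comparison (n = 3 against 3), the smallest that this design allows. The shift in Gata2 KD was positive for all 6 pairs of an Fcgr3 and an Fcgr2b probe (0.61 to 0.87), and none of these pairs overlapped between the groups. The shift in Pu.1 KD depended on the probes. It lay between -0.85 and 0.91 over the 6 pairs, was positive for both pairs with A_52_P545613, and was -0.11 when the probes of each gene were averaged, so that no direction holds for Pu.1 KD over all probes.

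The same subtraction of the brightest Fcgr2b probe for the other members is given without a test. Fcgr1 gained 0.90 on Fcgr2b in Gata2 KD, and its difference from Fcgr2b fell by 0.94 in Pu.1 KD. Fcgr4 gained 1.103 in Gata2 KD and 1.732 in Pu.1 KD. For Fcer1g the difference from Fcgr2b moved by -0.82 in Gata2 KD and by 2.02 in Pu.1 KD. On these probes the shift from EV thus had the same sign for Fcgr1 and Fcgr3 in each knockdown, and it was positive for Fcgr4 in both.

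**Figure D3:**
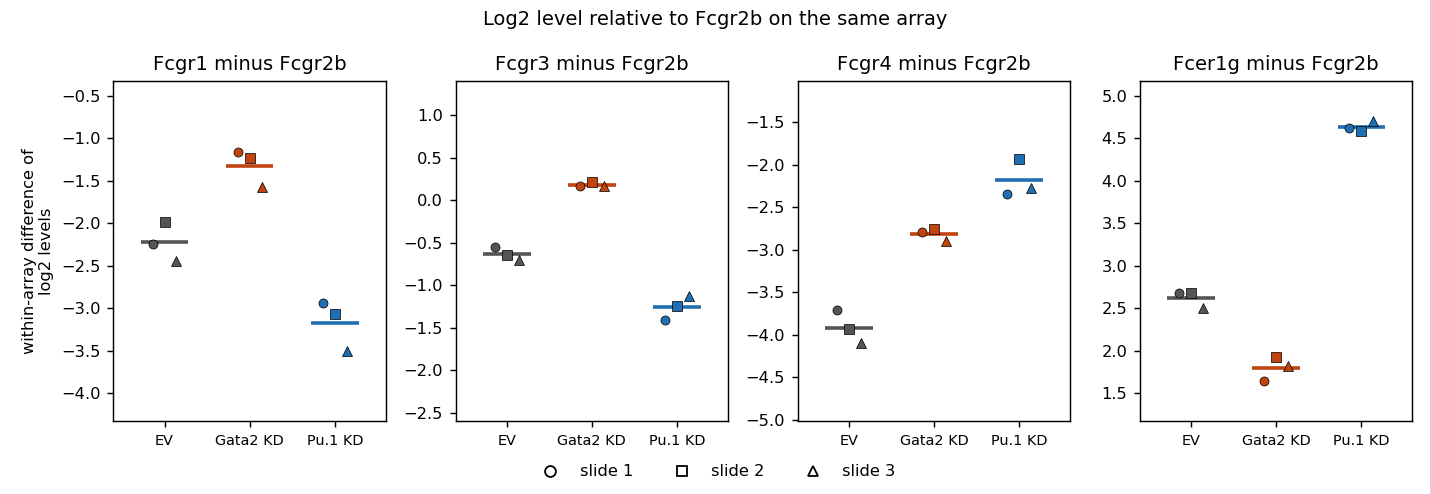
Log2 level of Fcgr1, Fcgr3, Fcgr4 and Fcer1g minus the log2 level of Fcgr2b on the same array (brightest probe of each gene), with 1 point per array, shaped by slide, and a line at the mean of 3 arrays. Only shifts between groups can be read, since probes differ in brightness; the Fcgr3 points move up in Gata2 KD (mean 0.18) and down in Pu.1 KD (mean -1.26) from EV (mean -0.64).

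Signals from these receptors pass through Src-family kinases to Syk and its adaptors, and are stopped by phosphatases. Of 26 genes listed for this pathway 25 were tested, and in Gata2 KD 7 rose, 2 fell and 16 did not pass the test (2.96% and 2.24% of all probes were called higher and lower), with a median change of 0.12 beside -0.09 over all genes. The kinase Fgr, which phosphorylates ITAMs in myeloid cells, rose by 2.45 (SE 0.25, limma adjusted p = 0.000677). Syk, the kinase that docks on the phosphorylated Fcer1g chain, rose by 1.33 (SE 0.22, adjusted p = 0.0102). Prkcd, a kinase further down, rose by 0.93 (adjusted p = 0.0132), and Ptpn6, the phosphatase SHP-1, by 0.87 (adjusted p = 0.0247). Lat, an adaptor of mast cells and T cells, fell by 1.95 (adjusted p = 0.000259), and Sos1, an exchange factor for Ras, changed by -1.02 (adjusted p = 0.0042). Lyn changed by 0.50 (adjusted p = 0.336) and Inpp5d, the phosphatase that Fcgr2b recruits, by -0.41 (adjusted p = 0.539). With the slide block the change of Inpp5d was called (adjusted p = 0.0471), and with the deposited values that of Lyn (adjusted p = 0.0322).

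Several of these calls changed when single arrays were left out or the processing was changed. Without the second Gata2 KD array 5 pathway genes passed the test instead of 9, and Syk (adjusted p = 0.0563) was no longer among them. Prkcd was lost without the second or the third Gata2 KD array and with scaling to the median (adjusted p up to 0.0718). Ptpn6 was lost in 10 of the 21 alternative settings (adjusted p up to 0.12). It was lost without any 1 of the Gata2 KD arrays, the first or second EV array or the first Pu.1 KD array. It was also lost with a replicate block, scaling to the median, averaged probes and only the compared groups in the fit. Sos1 was lost when its probes were averaged (adjusted p = 0.106). Fgr and Lat were called in all 21 alternative settings, although normexp, which adds an offset of 50 to every intensity, gave a smaller rise of 1.77 for Fgr.

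In Pu.1 KD 1 of the 25 pathway genes rose, 2 fell and 22 did not pass the test (1.27% and 1.42% of all probes were called higher and lower), with a median change of -0.14 beside -0.04 over all genes. Lyn, the Src-family kinase that phosphorylates both ITAMs and ITIMs, fell by 1.17 (SE 0.21, limma adjusted p = 0.0275). Dok1, an adaptor that restrains Ras signaling, rose by 0.74 (adjusted p = 0.0341), and it had also risen by 0.87 in Gata2 KD (adjusted p = 0.00925, and 0.0552 with only the compared groups in the fit). The changes of Syk (-0.56, adjusted p = 0.333), Ptpn6 (-0.62, adjusted p = 0.137) and Inpp5d (0.44, adjusted p = 0.552) did not pass the test. With the slide block those of Inpp5d (adjusted p = 0.0493) and Ptpn6 were called, and Ptpn6 was also called in 3 other settings (lowest adjusted p = 0.00952). The count of 3 fell to 0 without the first or the second Pu.1 KD array. It fell to 1 without the third Pu.1 KD array, the second or the third EV array or the second or the third Gata2 KD array, and Dok1 was lost without any 1 of the 9 arrays. Lyn was lost in 10 of the 21 alternative settings (adjusted p up to 0.155): without any of the 7 arrays named for these counts, with a replicate block, with scaling to the median and with only the compared groups in the fit.

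**Figure D4:**
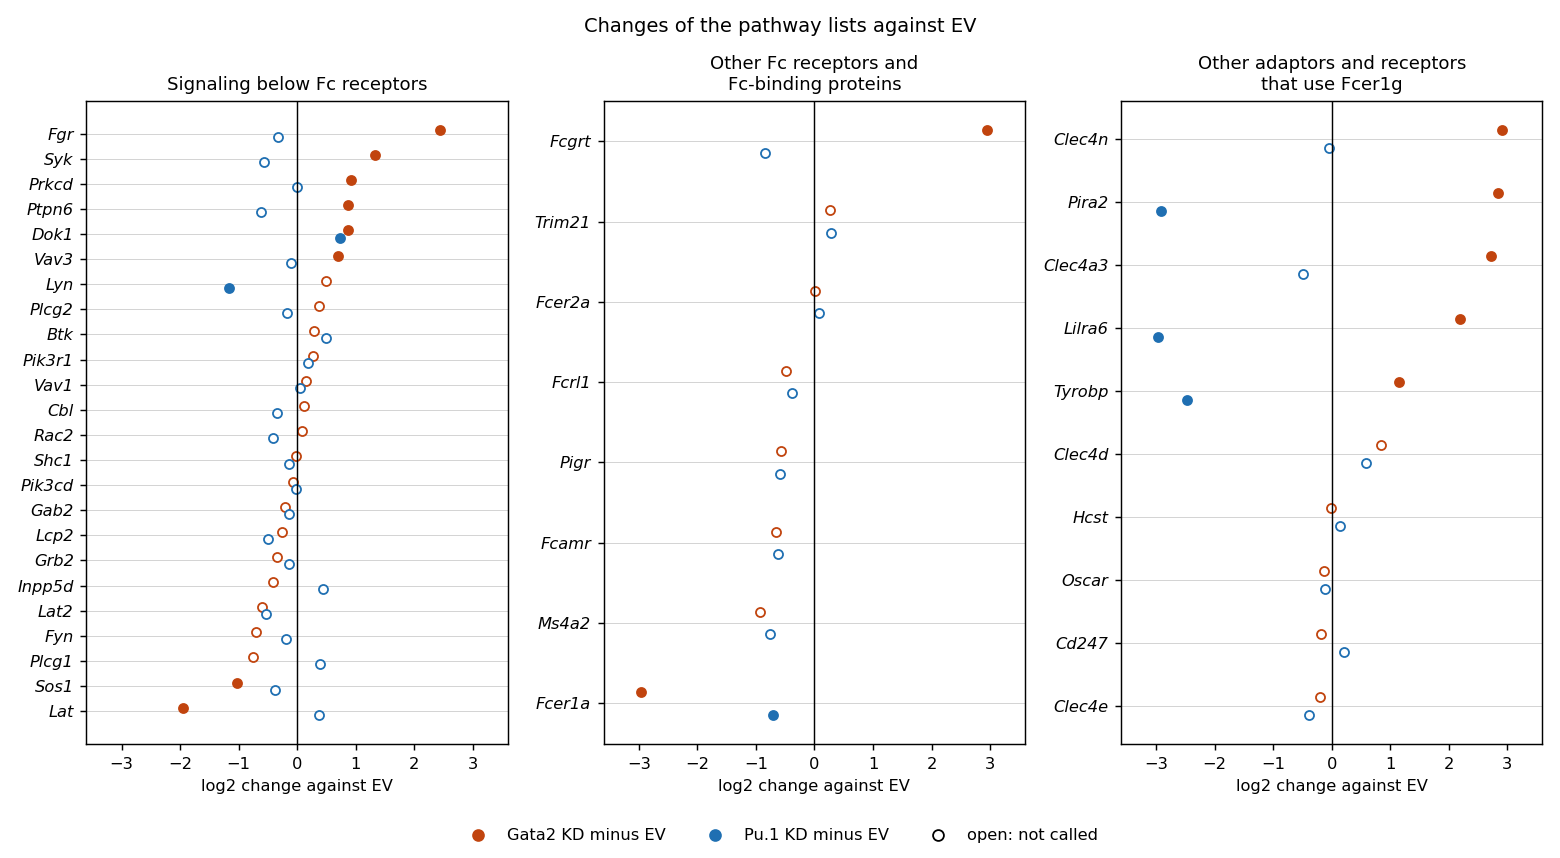
Log2 change against EV of tested genes in the lists of signaling below Fc receptors (1 of the 25 is not plotted), other Fc receptors and Fc-binding proteins (8) and other adaptors and receptors that use Fcer1g (10), for Gata2 KD and Pu.1 KD; filled points are called at an adjusted p under 0.05. Pira2, Lilra6 and Tyrobp are called on opposite sides of 0 in the knockdowns, whereas Fcer1a is called lower in both; Clec4a3 entered the test through its Gata2 KD arrays alone.

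Other adaptors and receptors that signal with Fcer1g or beside it were listed for comparison with the common chain. Of 11 listed genes 10 were tested, and 5 rose and 5 did not pass the test in Gata2 KD (2.96% of all probes were called higher), with a median change of 0.99 beside -0.09 over all genes. Of these 5, Clec4a3, entered the test through its Gata2 KD arrays alone and so had to differ. Without it 4 of 9 rose, with a median change of 0.85. Tyrobp, the DAP12 adaptor that resembles Fcer1g in carrying an ITAM, rose by 1.14 (SE 0.17, limma adjusted p = 0.00503) in Gata2 KD and fell by 2.48 (SE 0.17, adjusted p = 0.000787) in Pu.1 KD. Lilra6, an activating receptor of the paired Ig-like family, rose by 2.19 (adjusted p = 0.000313) and fell by 2.96 (adjusted p = 0.000629). Clec4n, the Dectin-2 receptor for fungal mannans, rose by 2.91 (adjusted p = 5.18e-05) in Gata2 KD, and its change in Pu.1 KD was -0.05 (adjusted p = 1).

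For Pira2 and Clec4a3, members of the same receptor families, part of the values lay below the range that the arrays measured. Pira2 was well above background on 3 of 3 Gata2 KD arrays, 2 of 3 EV arrays and no Pu.1 KD array. Set against the floor of the EV arrays, described below, it was 5.9-fold higher in Gata2 KD (limma adjusted p = 0.00801, and 0.0534 after quantile normalization). Normexp, which adds an offset, gave a log2 change of 1.17. Set against the floor of the Pu.1 KD arrays, Pira2 was 2.39-fold lower there than in EV (limma adjusted p = 0.0147). That call was lost without the first EV array or any 1 of the Pu.1 KD arrays. It was also lost with normexp (log2 change -0.26), quantile normalization, the deposited values and only the compared groups in the fit. Clec4a3 was well above background on the 3 Gata2 KD arrays alone, where it was 4.59-fold above the floor of the EV arrays. Its log2 change under normexp was 0.63. Each of these folds sets the brighter mean against a floor. The floor is the dimmest signal still well above background on the arrays of the other group. Where the own signal of the probe is higher, that is used instead. The dimmest signal is taken over the whole array and is not the detection limit of the probe itself. The folds are thus not strict lower bounds. These folds are made from means and leave out the spread between arrays (SE of the log2 change 0.45 for Pira2 and 0.41 for Clec4a3). Pira2 and Lilra6 belong to a family of close copies, and sharing of signal between them was not tested. In Pu.1 KD 3 of the 10 genes fell and 7 did not pass the test (1.42% of all probes were called lower), with a median change of -0.25 beside -0.04 over all genes, and of -0.11 without Clec4a3.

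Among 11 other Fc receptors and Fc-binding proteins, 8 were tested. Fcgrt, the neonatal Fc receptor that recycles IgG inside the cell, rose by 2.96 (SE 0.33, limma adjusted p = 0.00116; 2.07 with normexp) in Gata2 KD, with a change of -0.85 in Pu.1 KD (adjusted p = 0.316). Fcer1a, the IgE-binding chain that pairs with Fcer1g on mast cells and basophils, fell by 2.96 (SE 0.13, adjusted p = 1.29e-05) in Gata2 KD. Its level in EV was 6.06 ± 0.14 (SD, n = 3), and it was 3.10 ± 0.10 in Gata2 KD and 5.36 ± 0.09 in Pu.1 KD. In Pu.1 KD it fell by 0.70 (adjusted p = 0.0329), and this call was lost without any 1 of the 9 arrays. The other 6 tested genes of the list did not pass the test against EV in either knockdown.

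Markers of mature cell types moved in the same samples. For the counts below, 2.96% of all probes were called higher and 2.24% lower in Gata2 KD. In Pu.1 KD 1.27% were called higher and 1.42% lower. In Gata2 KD 10 of 10 tested neutrophil markers rose, among them Mpo and Csf3r, and the log2 of their summed signal was 7.91 to 8.08 in EV, 10.13 to 10.38 in Gata2 KD and 6.72 to 6.96 in Pu.1 KD. Of 8 tested monocyte and macrophage markers 6 rose, Csf1r and Cd14 included (5 of 7 without Mrc1, which was well above background in Gata2 KD alone), with summed levels of 5.09 to 5.23 in EV, 7.71 to 8.05 in Gata2 KD and 3.863 to 4.003 in Pu.1 KD. In Pu.1 KD 8 of the 10 neutrophil markers and 2 of the 8 monocyte and macrophage markers fell. Mast cell and basophil markers moved the other way in Gata2 KD, where 7 of 10 fell, from a summed level of 8.19 to 8.37 in EV to 6.05 to 6.33. In Pu.1 KD that sum was 8.26 to 8.41, while 1 of the 10 was called higher and 2 were called lower. Each summed level is set mostly by the brightest probes of its list and does not describe every marker. In EV the brightest was Gzmb (mean level 7.49) for mast cells and basophils and Lyz2 (4.99) for monocytes and macrophages. Of 5 tested erythroid markers 2 fell in Gata2 KD and 2 rose in Pu.1 KD. Of 6 megakaryocyte markers 2 rose and 1 fell in each knockdown, and their summed level was 5.95 to 6.32 in EV, 6.01 to 6.58 in Gata2 KD and 7.21 to 7.43 in Pu.1 KD. Markers of B, T, NK and dendritic cells had no call in Gata2 KD, where the smallest adjusted p (limma) among them was 0.305 for Cd79b. In Pu.1 KD 1 of them was called, Cd79b, which fell by 1.65 (adjusted p = 0.00351). The part of these cell types in the receptor changes was not tested.

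Across the 9 arrays Fcgr1, Fcgr2b and Fcgr3 had nearly the same profile, with Pearson correlations between 0.992 and 0.994 for the 3 pairs. Fcgr4 correlated with them at 0.811 to 0.865, and Fcer1g at 0.444 to 0.456. The arrays fall into 3 groups and share their scaling, so these coefficients describe the group pattern. Among 15803 other genes the profiles most like Fcgr1 were those of Lilra6 (0.996), Coro1a (0.994) and Evi2a (0.993). Those most like Fcgr2b were Rnase6 (0.995), Evi2a (0.994) and Tyrobp (0.994), and those most like Fcgr3 were Myadm (0.998), Ms4a6b (0.997) and Rnase6 (0.997). For Fcgr4 they were Cd14 (0.999), Aldh3b1 (0.998) and Asb2 (0.998), so that 1 of the monocyte markers was its nearest profile. For Fcer1g no gene came as close, the first being H4c6 (0.930), Ppp1r14c (0.890) and Rps21 (0.886).

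In the RefSeq annotation Fcgr2b, Fcgr4 and Fcgr3 lie next to each other on chromosome 1, and Fcer1g follows after 7 other protein-coding genes, while Fcgr1 is on chromosome 3. In order along the chromosome, the changes in Pu.1 KD were -2.08 for Fcgr2b, -0.35 for Fcgr4 and -2.71 for Fcgr3. The receptor with the smallest change lay between 2 that were called lower, and within the slides its change was -0.53 to -0.24. Of the 7 genes between Fcgr3 and Fcer1g, 5 were tested, chosen as neighbours after the values of the members were known. Their changes lay between -0.33 and 0.06 in Gata2 KD and between -0.41 and -0.10 in Pu.1 KD, and the smallest adjusted p (limma) was 0.199, for Tomm40l in Pu.1 KD.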

How the data were processed

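Total RNA (150 ng per sample) had been labelled with Cy3 and hybridised to 1-colour Agilent whole-mouse arrays. The deposited scanner files hold the intensity of each spot, written by Agilent Feature Extraction 10.1.1.1 for an array design on the build mm8, with background already subtracted in the processed intensity used here. The deposited table of log2 values made by the authors followed the log2 median signal (correlations 0.9972 to 0.9999, column medians 7.00 to 7.05) and was used as an alternative. Its exact normalization is not given in the sources used here.

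From the scanner files, control spots and spots marked as outliers (47 to 96 per array) were left out, log2 intensity was averaged per probe, and the 75th percentile of each array was subtracted. Probes well above background on at least 3 of 9 arrays, with at least 2 values in each group, were fitted by group in limma 3.58.1 under R 4.3.3 (lmFit, contrasts.fit, eBayes), with all 9 arrays in 1 fit. The tests were two-sided, with Benjamini-Hochberg adjustment over 36585 probes and a threshold of 0.05. The same code was tested on simulated data. Groups came from the sample labels.

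Gene names came from matching accessions to RefSeq, which named 23374 of 41174 probes. The text names all members, the knocked-down genes, 5 proximal signaling genes whatever their change (Syk, Lyn, Inpp5d, Ptpn6 and Tyrobp), in each pathway list at most 4 called genes per direction, and the 3 genes most alike to each member by Pearson correlation. Some genes that this rule or the lists include are not reported here by name. The members and lists were chosen with earlier results of these data known. Alternatives were a block for replicate number or for slide, normexp correction (offset 50, on the median signal), quantile or median scaling, other filters, eBayes with trend, averaging over probes, and leaving out each array. The number of arrays limits the precision.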

Additional observations from a re-analysis of the deposited data

How the results depend on the processing

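Of 15 results (5 genes in 3 comparisons), 14 kept their side of the threshold in all 21 alternatives, and the called ones kept their direction. The changes of Fcer1g, never called, lay on both sides of 0 (-0.01 to 0.18 in Gata2 KD, -0.14 to 0.01 in Pu.1 KD). The exception was Fcgr2b in Gata2 KD, whose adjusted p was 0.234 when its 3 probes were averaged. The count of member genes called was 3 to 4 in Gata2 KD, 3 in Pu.1 KD and 4 between the knockdowns, also without each array in turn. Deviations of same-numbered arrays correlated between -0.55 and 0.65 over 9 pairs. Whether equal replicate numbers mark paired samples cannot be told from these values. For arrays on the same slide these correlations lay between -0.04 and 0.72, and slide was not part of the main fit. With a replicate block 4, 3 and 4 genes were called as before (adjusted p of Fcgr2b in Gata2 KD 0.0344, and 0.0519, no longer called, for its probe A_51_P130101), while over all probes the block took the count in Pu.1 KD from 986 to 234. Over all alternatives the count of probes called lay between 1072 and 2886 in Gata2 KD, 223 and 1875 in Pu.1 KD and 2206 and 5168 between the knockdowns. Genes called in the signaling list numbered 5 to 13 in Gata2 KD (9 as reported) and 0 to 6 in Pu.1 KD (3 as reported), and in the list of other Fc receptors 0 to 1 in Pu.1 KD. The list of adaptors and receptors that use Fcer1g gave 3 to 5 calls between the knockdowns. The probe A_52_P545613 passed the test in Pu.1 KD with normexp correction and with the deposited values (lowest adjusted p = 0.00678), and its difference between the knockdowns missed the threshold without any 1 of the Gata2 KD arrays (adjusted p up to 0.075). The change of Fcgr3 minus that of Fcgr2b was 0.73 in Gata2 KD and -0.11 in Pu.1 KD with averaged probes, against 0.82 and -0.63 as reported. Other probe pairs, an alternative chosen after seeing the data, moved it in Gata2 KD to 0.61, 0.62 and 0.66 with the second Fcgr3 probe. In Pu.1 KD they moved it to -0.85, -0.37 and -0.14, and with the probe A_52_P545613 it reversed to 0.42 and 0.91. The causes were not tested.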
